A study of Mus musculus with 4 samples.

Results

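Cells that carried keratin transcripts of epithelium, little or no Epcam and a set of mitotic transcripts were described in single-cell RNA sequencing of pancreatic tumors. A cell was a member where Krt8 and Krt18 together made up at least 20 of every 10000 UMIs (unique molecular identifiers, transcript molecules counted once each), Epcam made up under 3, no UMI of the leukocyte gene Ptprc was seen, and at most 1 of the mesothelial genes Upk3b, Lrrn4, Nkain4 and Gpm6a was detected. It also had to show at least 5 of 8 genes of the dividing cell, namely Mki67, Top2a, Ube2c, Cdc20, Ccnb1, Birc5, Cenpf and Hmmr. This gave 502 cycling cells of 7984 cells that passed the quality filter (6.29%). The reference was the 1217 cells that met the same keratin, Epcam, Ptprc and mesothelial limits with at most 1 of the 8 genes detected, and 379 further cells showed 2 to 4 of them.

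The tumors came from 2 KPC mice, an engineered model of pancreatic cancer with Trp53 LSL-R172H/+ and Pdx1-Cre on the C57BL/6J background. In this model Pdx1-Cre switches on mutant Trp53 in the pancreatic lineage, so every group carried these alleles and there was no normal pancreas among the samples. From each tumor an all live library (cells that excluded DAPI) and a sorted CAF library (cancer-associated fibroblasts, sorted as DAPI-, CD45-, CD31-, EpCAM- and PDPN+) were made, which gave 2 libraries per group. The gate is given as the labels have it; the stain they list names no EpCAM antibody, and 1027 of the 1402 kept cells of sorted CAF 1 were Epcam-low and keratin-positive. The labels give no ages. Tumor 1 held 487 of the members, 239 in its all live and 248 in its sorted CAF library, and tumor 2 held 15, of which 4 and 11. The reference cells numbered 545, 600, 20 and 52 in the same order of libraries (all live 1, sorted CAF 1, all live 2, sorted CAF 2). Nearly all of what follows is therefore measured in 1 tumor, and the other serves as a thin replicate.

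A dividing cell copies its DNA in S phase, condenses and aligns its chromosomes on a spindle in mitosis, and splits in cytokinesis. Cyclins with their kinases drive these steps. The anaphase-promoting complex (APC/C), a ubiquitin ligase activated by Cdc20 and fed by the ubiquitin-conjugating enzyme Ube2c, ends mitosis by destroying cyclin B and securin. Inhibitors such as Cdkn1a, a target of p53, hold cells back, and genes of the late cycle are repressed in resting cells and activated in dividing cells through a short promoter element, the CHR (cell cycle genes homology region), bound by the DREAM complex and later by B-MYB and FOXM1. In pancreatic cancer, tumor cells that lose epithelial surface proteins such as EpCAM and carry mesenchymal genes such as Vim are described as partly mesenchymal.

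The CHR was visible in promoters of the genes that chose the cells and of the mitotic genes that went with them, and these promoters are shown because they are the sequences these genes share. Each line gives the 200 bases before the transcription start, 5′ to 3′ on the gene's strand, from RefSeq on GRCm38.p6 (mm10). Capitals mark the CHR (TTTGAA or TTCGAA) and the CCAAT box (CCAAT), both searched on both strands, so that they also read TTCAAA and ATTGG. The first 4 belong to genes of the rule and the fifth to Cdk1, the mitotic kinase. The regions are chr7:135716380-135716579, minus strand (Mki67), chr11:99024190-99024389, minus strand (Top2a), chr2:164769729-164769928, plus strand (Ube2c), chr4:118437344-118437543, minus strand (Cdc20) and chr10:69352913-69353112, minus strand (Cdk1).
Mki67: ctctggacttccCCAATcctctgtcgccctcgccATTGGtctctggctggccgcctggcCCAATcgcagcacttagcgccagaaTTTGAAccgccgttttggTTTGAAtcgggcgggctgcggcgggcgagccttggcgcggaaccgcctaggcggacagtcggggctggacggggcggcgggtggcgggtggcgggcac
Top2a: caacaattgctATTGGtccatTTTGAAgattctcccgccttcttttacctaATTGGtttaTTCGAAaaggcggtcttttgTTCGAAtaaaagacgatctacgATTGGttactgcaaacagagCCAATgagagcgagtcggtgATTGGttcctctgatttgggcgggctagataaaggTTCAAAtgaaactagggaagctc
Ube2c: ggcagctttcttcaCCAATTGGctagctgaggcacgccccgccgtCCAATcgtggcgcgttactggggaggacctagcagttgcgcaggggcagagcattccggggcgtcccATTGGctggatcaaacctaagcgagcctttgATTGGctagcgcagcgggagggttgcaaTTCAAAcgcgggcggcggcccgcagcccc
Cdc20: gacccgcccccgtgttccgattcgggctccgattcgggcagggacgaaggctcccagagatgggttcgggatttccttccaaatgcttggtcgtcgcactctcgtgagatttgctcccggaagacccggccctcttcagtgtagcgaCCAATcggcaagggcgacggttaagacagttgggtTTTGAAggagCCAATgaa
Cdk1: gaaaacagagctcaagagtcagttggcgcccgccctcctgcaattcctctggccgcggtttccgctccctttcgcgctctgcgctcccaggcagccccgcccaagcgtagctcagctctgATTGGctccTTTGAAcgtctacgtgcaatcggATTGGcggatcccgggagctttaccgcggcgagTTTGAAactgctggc

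Counted from -1 at the base before the start, the CHR began at -116 and -98 in Mki67, at -179, -140, -120 and -23 in Top2a, at -29 in Ube2c, at -18 in Cdc20, and at -71 and -15 in Cdk1. For contrast, 2 promoters of S-phase genes that were also higher in the cycling cells are Rrm2 (chr12:24708054-24708253, plus strand), the small subunit of ribonucleotide reductase, and Mcm5 (chr8:75109309-75109508, plus strand), a subunit of the replicative helicase. They hold CCAAT boxes and no CHR.
Rrm2: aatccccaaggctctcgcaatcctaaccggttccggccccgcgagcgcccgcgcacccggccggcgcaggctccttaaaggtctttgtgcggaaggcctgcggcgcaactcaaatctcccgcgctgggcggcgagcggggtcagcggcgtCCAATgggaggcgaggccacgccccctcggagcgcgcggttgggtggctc
Mcm5: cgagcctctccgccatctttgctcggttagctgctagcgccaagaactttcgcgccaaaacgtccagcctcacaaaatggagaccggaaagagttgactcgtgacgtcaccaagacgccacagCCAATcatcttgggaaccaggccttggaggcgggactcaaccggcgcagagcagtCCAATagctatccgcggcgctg

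In windows from 250 bases before to 50 after the start, 6 of the 8 rule genes (75.0%) held a CHR, the exceptions being Ccnb1 and Birc5. Among genes of the mitotic lists that were higher in the cycling cells, 36 of the 49 with a window (73.5%) held one. Among S-phase genes that were higher it was 6 of 35 (17.1%), beside 16.1% of the 8689 tested genes with a window and 21.7% of the 27025 genes with one. The CCAAT box was common in all of them, at 71.4% of the mitotic genes, 21 of 35 S-phase genes and 43.1% of the tested genes. CHR and CCAAT box stood together in 59.2% of the mitotic, 11.4% of the S-phase and 6.70% of the tested genes. A match describes letters in a window; binding was not measured. The tumor cells' genomes were not read.

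The genes of the rule were at the following levels, which describe the choice and carry no test. Ube2c stood at 342, 386, 801 and 84.7 CPM (UMIs of the summed cells scaled to equal depth) in the members of all live 1, sorted CAF 1, all live 2 and sorted CAF 2, and at 6.30, 8.79, 0 and 2.07 CPM in the reference cells. Cdc20 stood at 273, 323, 243 and 185 CPM in the members and at 3.56, 5.32, 13.5 and 5.18 CPM in the reference. Every library's members lay above every library's reference cells for both genes. Mki67, the gene of the Ki-67 antigen, was found in 68.6% of tumor 1 members at 52.8 CPM, and Top2a, which untangles sister chromatids, in 45.2% at 52.7 CPM. Ube2c was found in 96.3% of tumor 1 members, Birc5 (survivin) in 95.3% and Ccnb1 (cyclin B1) in 94.5%. Hmmr, a spindle-associated protein, was lowest of the 8 at 37.8 CPM and was found in 57.1%. In tumor 2 Mki67 was higher, at 213 and 146 CPM, and was found in all 15 members.

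**Figure D1:**
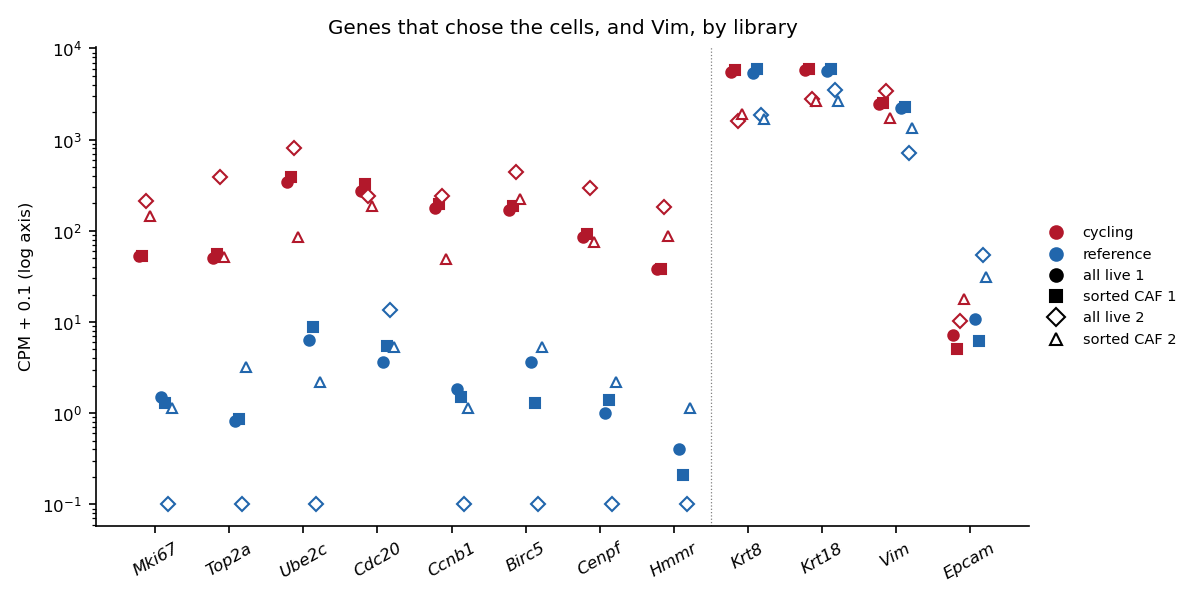
Levels (CPM plus 0.1, log axis) of the 8 cycle genes, Krt8, Krt18, Vim and Epcam in cycling (red) and reference (blue) Epcam-low keratin-positive cells, 1 point per library. The 8 genes chose the cells, so their gap is by construction; Krt8 and Krt18 lie at similar levels in both states and are lower in tumor 2.

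The rule asked for Krt8 and Krt18, so their levels describe the choice and do not test the epithelial part of the label. In members, Krt18 stood at 5848, 5967, 2768 and 2621 CPM in the 4 libraries, and Krt8 at 5501, 5843, 1592 and 1931 CPM. The mesenchymal filament gene Vim was at 2464, 2527, 3427 and 1733 CPM, and at least 1 Vim UMI was found in 99.8% of tumor 1 members. In the reference cells Vim was at 2240, 2264, 715 and 1355 CPM, below the members of each library. A Vim UMI was found in 99.5% of tumor 1 and 79.2% of tumor 2 reference cells. Vim did not pass the test between cycling and reference cells (log2 fold change 0.33 ± 0.13, SE, edgeR, adjusted p = 0.0725). Epcam, held under its limit by the rule, had a UMI in 59 members (11.8%). Pdpn, whose protein the CAF gate selects, stood at 0.598 CPM in the 248 members of sorted CAF 1 and at 1.22 CPM in those of all live 1. Whether the cells carry the recombined Trp53 allele was not measured, so "tumor" in their name rests on the tissue.

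Markers of stromal, immune and acinar cells were low in the members, and the summed markers of Epcam-rich ducts were not. The 9 markers of Epcam-rich ductal epithelium summed to 11360, 10740, 10920 and 11370 CPM in the members of the 4 libraries, against 14690, 6664, 16160 and 15000 CPM in the Epcam-rich keratin-positive cells (40, 1, 168 and 26 cells). Similar sums do not mean a shared profile over the 9 genes. Spp1 alone made up most of the sum in the members of all live 2, and Epcam, also in the list, was held low by the rule. The 10 fibroblast markers summed to 98.0 and 36.6 CPM in the members of tumor 1, against 27590 and 27900 CPM in the fibroblasts of the same libraries. In tumor 2 they summed to 608 and 1030 CPM against 32690 and 37290 CPM, and Fap was at 0. In the reference cells the fibroblast markers summed to 106 and 73.5 CPM in tumor 1 and to 13.5 and 436 CPM in tumor 2. The members of tumor 2 thus lay above their reference cells for these markers, and those of tumor 1 did not. Of 9 fibroblast markers tested 0 were called, and with the highest doublet scores left out 4 were higher and 0 lower. The 10 macrophage markers summed to 283, 70.0, 193 and 66.8 CPM in the members. The 7 lymphocyte markers were all at 0 in 3 of the 4 libraries and summed to 2.44 CPM in all live 1. The acinar markers (digestive enzyme genes) summed to between 25.7 and 77.5 CPM in members, and Cpb1, Cela2a, Pnlip, Try4, Cel and Rbpjl were at 0 in each library. In the reference cells of tumor 2 they summed to 59070 CPM in all live 2 and 6446 CPM in sorted CAF 2, which came from 16 of the 72 cells, each with at least 50 acinar UMIs per 10000. No tumor 1 reference cell and no member reached that level, so results were also computed without these 16 cells.

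The members made up 73.8% and 92.5% of all cells with at least 5 of the 8 genes in all live 1 and sorted CAF 1, and 3.23% and 10.1% in all live 2 and sorted CAF 2. Among Epcam-low keratin-positive cells, 24.8% were cycling in all live 1 (95% Clopper-Pearson interval 22.1 to 27.7, 963 cells) and 24.2% in sorted CAF 1 (21.6 to 26.9, 1027 cells). In tumor 2 the share was 14.8% (4.19 to 33.7, 27 cells) and 13.6% (6.98 to 23.0, 81 cells). Fibroblasts, taken as cells with Col1a1 and Col1a2 at 20 or more and keratins under 3 per 10000, had shares of 2.94%, 3.49%, 5.74% and 9.28%. The members were deeper than the reference cells, with median UMI counts of 29565 against 15553 in all live 1 and 26723 against 13976.5 in sorted CAF 1, and the rule counts detected genes. With every cell thinned to 5000 UMIs (2, 49, 12 and 6 shallower cells left out) the epithelial shares were 5.52%, 5.01%, 13.3% and 2.67%, and the fibroblast shares 0.741%, 2.24%, 4.41% and 3.30% (1, 38, 54 and 106 fibroblasts left out). At equal depth the intervals of the epithelial and fibroblast shares overlapped in both libraries of tumor 2 and in sorted CAF 1. In all live 1 they were 4.16 to 7.15% against 0.0188 to 4.06%. Intervals cover counting error only, and cells of 1 tumor are not replicates, so no test was made.

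**Figure D2:**
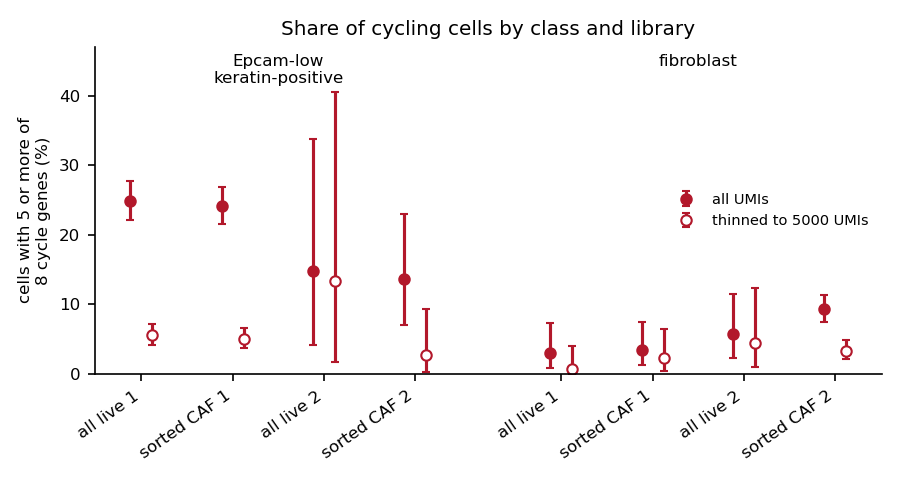
Share of cells with at least 5 of the 8 cycle genes (percent) among Epcam-low keratin-positive cells and fibroblasts in each library, from all UMIs (filled) and after thinning each cell to 5000 UMIs (open), with 95% Clopper-Pearson intervals for counting error. Thinning took the epithelial shares of tumor 1 from 24.8% and 24.2% to 5.52% and 5.01%.

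Close to the limit of the rule, 119 tumor 1 cells showed 4 of the 8 genes and 147 showed 5. Their kinesin and spindle genes summed to 346 and 525 CPM, their cytokinesis genes to 232 and 358 CPM and their S-phase genes to 1514 and 1707 CPM. Over the whole scale in tumor 1, S-phase genes stood at 451 CPM in cells with none of the 8 genes, 1212 CPM with 3, 1950 CPM with 6 and 1961 CPM with 8. Kinesin and spindle genes stood at 52.96, 247, 650 and 1362 CPM at the same steps. The S-phase level was thus nearly flat from 6 to 8 genes detected while the spindle genes went on to a level of 1362. Median depth moved with the scale too, from 13487 UMIs at none to 34727 at 8, and its part in the order was not tested.

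**Figure D3:**
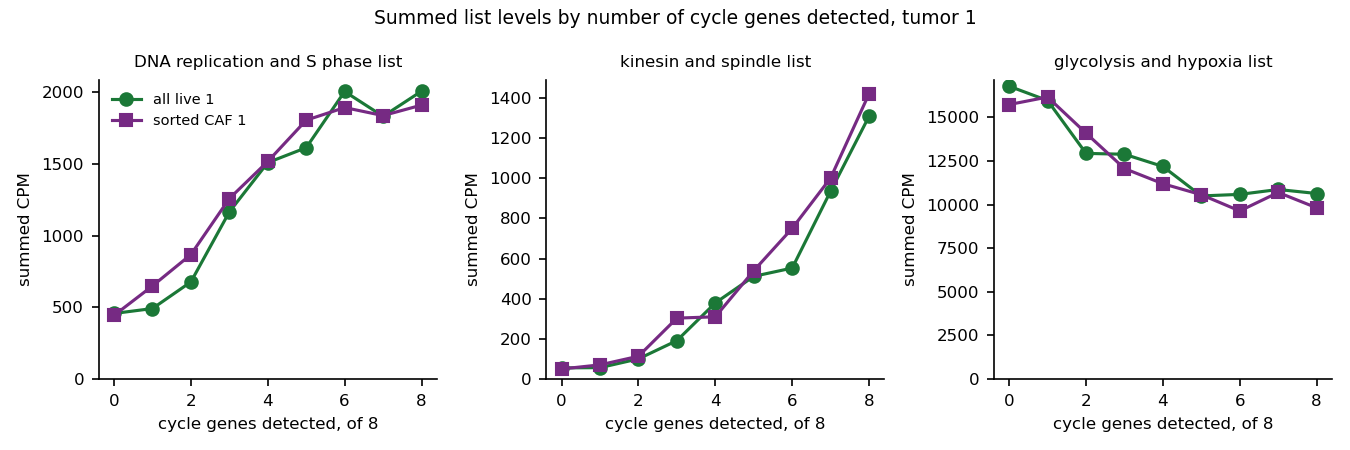
Summed level (CPM) of the S-phase, kinesin and spindle, and glycolysis and hypoxia lists in Epcam-low keratin-positive cells of tumor 1, by the number of the 8 cycle genes detected, in the all live (circles) and sorted CAF (squares) libraries. S-phase genes flatten near 1950 CPM, spindle genes go on to 1362 CPM, and the glycolysis and hypoxia level is lower from 2 genes upward.

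The cycling and reference cells were compared gene by gene on counts summed per tumor, with the tumor as a block (edgeR's quasi-likelihood test, 11456 genes). In the cycling cells 863 genes were higher and 781 lower, which is 7.53% and 6.82% of the genes tested, and the median log2 fold change of all genes was -0.06. Of the 1644 called genes, 94.3% had the same sign in both tumors, as had 64.2% of all genes tested. These p-values have 2 tumors behind them and 1 residual degree of freedom, and without the block 0 genes passed (538 at an unadjusted p under 0.05). DESeq2 called 261 higher and 164 lower. In the test without the 16 acinar-high cells 865 were higher and 779 lower, and 1603 genes were called in both. CPM values are shares of a cell's UMIs, and members held about as many or more UMIs per cell of several lists whose share was lower, as given below.

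Genes of the cell cycle that the rule did not use are described by counts, since cells chosen on 8 cycle genes carry the others with them. Of 217 tested genes in 12 cycle lists, 176 were called higher and 0 lower, with a median log2 fold change of 2.04. It stands beside 7.53% of all genes called higher, and nothing is read from it, as the rule used the same contrast.

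Among cyclins, CDK1 and their partners 10 of 11 were higher. Ccna2 (cyclin A2), which pairs with CDK2 and CDK1, stood at 167, 158, 142 and 48.8 CPM in the 4 libraries' members and at 2.54, 1.19, 0 and 0 CPM in the reference, with no overlap between the states. Plk1, the polo-like kinase of mitotic entry, stood at 55.0, 76.0, 122 and 33.4 CPM against 0.508, 0.977, 0 and 1.04 CPM. The phosphatase gene Cdc25c, which activates CDK1, was at 48.8 and 6.15 CPM in the members of tumors 1 and 2 and at 0.945 and 0 CPM in the reference. Cdk1 was at 118 and 139 CPM against 5.20 and 20.7 CPM.

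All 23 mitotic kinesin and spindle genes were called higher (median 4.49), as were all 10 of cytokinesis (4.20) and all 6 of the chromosomal passenger complex and Aurora kinases (4.86). Nusap1, which bundles spindle microtubules, was at 31.6 and 38.9 CPM in members of tumors 1 and 2 and at 0.262 and 0.898 CPM in the reference. Tpx2, the activator of Aurora A, was at 122 and 73.8 CPM against 2.05 and 6.29 CPM, and Aurka itself at 83.6 and 20.5 CPM against 2.41 and 0 CPM. Racgap1, a subunit of centralspindlin at the cleavage site, was at 133 and 45.1 CPM against 4.36 and 8.98 CPM. Spindle checkpoint and kinetochore genes were higher in 13 of 16, among them the kinetochore motor Cenpe (93.0 and 127 CPM against 1.31 and 3.59 CPM) and the checkpoint kinase Bub1 (27.5 and 43.0 CPM against 0.682 and 1.80 CPM).

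The APC/C list went differently from its neighbours, with 4 of 17 called and a median of 0.25. Its called members were separase Espl1, the APC/C inhibitor Fbxo5 (EMI1), the chain-elongating enzyme Ube2s and the subunit Anapc15. Ube2s was the abundant one, at 900 and 942 CPM in members of tumors 1 and 2 against 255 and 272 CPM. Most subunits of the ligase did not pass the test. In the condensin and cohesin list 9 of 12 were higher, among them the condensin subunit Ncapd2 (27.4 and 20.5 CPM against 2.20 and 1.80 CPM). Of chromatin and tubulin genes 19 of 23 were higher, among them the chromatin protein gene Hmgb2 at 1200 and 699 CPM against 160 and 76.3 CPM.

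Of the DNA replication and S phase list, 44 of 46 genes were called higher (median 1.97). Mcm5 was at 78.4 and 26.6 CPM in members of tumors 1 and 2 against 8.45 and 3.59 CPM, Clspn, the replication checkpoint mediator, at 17.1 and 41.0 CPM against 1.26 and 1.80 CPM, and Uhrf1, which helps maintain DNA methylation, at 23.0 and 32.8 CPM against 2.62 and 0.898 CPM. Nucleotide synthesis genes were higher in 17 of 20, with Rrm2 at 432, 440, 91.3 and 313 CPM in the 4 libraries' members and at 47.8, 52.2, 6.75 and 16.6 CPM in the reference. The states did not overlap for Rrm2. Homologous recombination and Fanconi genes were higher in 13 of 16, among them the exonuclease gene Exo1 (9.17 and 2.05 CPM against 0.472 and 0.898 CPM). In the list of regulators 8 of 17 were higher, with Mybl2 (B-MYB) at 25.5 and 6.15 CPM against 0.840 and 0 CPM and Foxm1 at 13.3 and 26.6 CPM against 1.21 and 0 CPM.

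The members varied in their S-phase level, while the phase of each cell was not measured. The S-phase list had a median of 14.2 UMIs per 10000 in members of all live 1 (range 2.60 to 63.2) and 15.7 in those of sorted CAF 1 (2.11 to 49.8). In the reference cells the medians were 3.75 (0 to 32.5) and 3.95 (0 to 51.7). The ranges overlap, so some reference cells had high S-phase levels. Members of tumor 1 were split within each library by this level, and the cells with the highest levels (60 in all live 1 and 62 in sorted CAF 1) were set beside as many with the lowest, as a description. Rrm2, which is not in the S-phase list, stood at 705 and 657 CPM in the highest cells of all live 1 and sorted CAF 1 and at 234 and 223 CPM in the lowest. Ccne1 (cyclin E1), which opens S phase and is in the list that made the split, stood at 63.4 and 46.2 CPM against 2.69 and 3.12 CPM. Some mitotic genes had the opposite order and others did not. Cdc20 stood at 118 and 139 CPM in the highest cells and at 275 and 328 CPM in the lowest, and Cenpa, the centromeric histone, at 79.2 and 116 CPM against 207 and 268 CPM. Ccnb2 (cyclin B2) was at 51.8 and 67.7 CPM against 153 and 135 CPM. Aurka was higher in the highest cells, at 73.9 and 85.1 CPM against 31.2 and 57.4 CPM, as was Plk1, at 42.7 and 58.1 CPM against 31.2 and 51.8 CPM. The kinetochore motor gene Cenpe (59.03 and 53.6 CPM against 46.2 and 84.3 CPM) had opposite orders in the 2 libraries. Ube2c was at 241 and 251 CPM against 224 and 285 CPM, likewise in opposite orders. Vim (2347 and 2541 CPM against 2601 and 2473 CPM) and Krt18 (5957 and 5996 CPM against 5950 and 5903 CPM) were close. The highest cells were also deeper (medians of 35647 and 30998 UMIs against 28652.5 and 23060.5).

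Genes outside the cycle lists are measures the rule did not use. In the list of CDK inhibitors and p53 targets 7 of 24 fell, 1 rose and 16 did not pass (median -0.32). Beside these counts stand 6.82% of all genes called lower and 7.53% called higher. Cdkn1a, which encodes the CDK inhibitor p21, was at 41.7, 38.3, 0 and 5.14 CPM in the members of the 4 libraries and at 117, 104, 60.7 and 28.0 CPM in the reference. In each library the members were lower, although the ranges of the libraries overlap. Its log2 fold change was -1.72 ± 0.28 (SE, edgeR, adjusted p = 2.45e-08). Trp53inp1, a stress-induced p53 partner, fell by 3.09 on the log2 scale, the antiproliferative gene Btg2 by 1.64 and the growth-arrest gene Gadd45a by 1.74. Aen, a p53-induced nuclease, was the called gene of the list that went up (0.98 ± 0.28, adjusted p = 0.00618). Cdkn2a, which encodes p16 and ARF, stood at 350 and 434 CPM in the members of tumors 1 and 2 and at 384 and 437 CPM in the reference (-0.17 ± 0.16, adjusted p = 0.570), and Trp53 itself was not called (adjusted p = 0.149).

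Of G1 cyclins and MYC network genes, 3 of 13 rose and 3 fell. The shares of all genes called, 7.53% higher and 6.82% lower, belong beside the counts of this paragraph. The MYC antagonists Mxd1 (-1.72 ± 0.30), Mxd4 (-1.54 ± 0.31) and Mxi1 (-0.98 ± 0.29) were the ones that fell, and Cdk2 was among those that rose (0.90 ± 0.33). Myc had a log2 fold change of 0.13 ± 0.27 and was not called (edgeR, adjusted p = 0.826). Ribosome biogenesis genes rose in 17 of 20 with 0 lower (median 0.91). Nolc1, a nucleolar phosphoprotein, stood at 194, 196, 233 and 136 CPM in the members and at 72.3, 78.0, 40.5 and 60.1 CPM in the reference, without overlap. Rrs1, which helps build the large subunit, rose by 1.32 ± 0.26, and Dkc1, the pseudouridine synthase dyskerin, by 1.19 ± 0.26. Against reference cells of at least 20000 UMIs 10 of the list were higher (median 0.83), and with DESeq2 or Epcam under 1 per 10000 9 were. In the tumor 1 libraries alone 20 were higher, and 14 after thinning to 5000 UMIs (median 0.62), fits whose replicates are libraries of 1 tumor. None was lower in these settings.

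Genes of glycolysis and hypoxia were lower as a group. Of 27 tested, 17 fell and 0 rose, with a median log2 fold change of -0.75, beside 6.82% of all genes called lower. Bnip3, a mitophagy receptor induced by low oxygen, stood at 131, 124, 30.4 and 0 CPM in the members of the 4 libraries and at 545, 565, 47.2 and 48.7 CPM in the reference. The members were lower in each of the 4 libraries (-2.30 ± 0.22, edgeR, adjusted p = 1.49e-23). In the 4 members of all live 2, 1 UMI is 10.1 CPM. The levels of that library in this paragraph therefore rest on few UMIs and add little. Car9, a carbonic anhydrase used as a hypoxia marker, stood at 22.1, 16.3, 10.1 and 28.2 CPM against 85.4, 84.8, 108 and 90.1 CPM, with no overlap between the states (-2.17 ± 0.26). Ero1l, an oxidase of the endoplasmic reticulum, stood at 211, 224, 40.6 and 25.7 CPM against 797, 874, 47.2 and 60.1 CPM (-1.84 ± 0.20). Adm (adrenomedullin) was at 17.4 against 76.4 CPM in tumor 1 and at 0 in both states of tumor 2, so its call rests on tumor 1.

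The tumors differed in how evenly the list moved. On the TMM-scaled level all 27 genes were lower in the cycling cells of tumor 1, whereas in tumor 2 10 of 27 were higher, and 13 of the 17 called genes had the same sign in both. The glucose transporter gene Slc2a1 was at 101 against 220 CPM in tumor 1 and at 47.1 against 38.6 CPM in tumor 2. Among glycolytic enzymes, Gapdh and Aldoa were called and Ldha (-0.17 ± 0.13, adjusted p = 0.460), Pkm and Eno1 were not. Summed over the list, members of tumor 1 held a median of 268 UMIs per cell and reference cells 207, which is 91.4 and 142 per 10000. In tumor 2 the summed share was not lower, at a median of 52.1 per 10000 in members and 48.8 in reference cells (162 and 55.5 UMIs per cell). Without the 16 acinar-high cells 18 were lower, with cells thinned to 5000 UMIs 23 of the tested members, and against reference cells of at least 20000 UMIs 15 (medians -0.76, -0.90 and -0.76). The thinned fit has the tumor 1 libraries alone, where 26 were lower unthinned. In both the replicates are libraries of 1 tumor, so these counts do not measure variation between animals. The count was 11 without all live 1, 8 with DESeq2 and 12 with Epcam under 1 per 10000, and 0 rose in any of these. The core of the hypoxia response element (ACGTG or GCGTG, both strands) was in 13 of the 15 called genes with a window (86.7%), beside 69.1% of the tested genes with one.

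Interferon response and class I genes fell in 8 of 17 and rose in 0 (median -0.97), beside 6.82% of all genes called lower. H2-K1, a class I heavy chain, was at 97.3 and 41.0 CPM in the members of tumors 1 and 2 and at 157 and 128 CPM in the reference (-1.07 ± 0.21), and Irf7, a transcription factor of the interferon response, at 8.46 and 0 CPM against 23.4 and 7.19 CPM. Members of tumor 1 held a median of 15 UMIs of this list per cell and reference cells 12. With the reference limited to cells of at least 20000 UMIs, 4 of the list were lower and the median was -0.85. With DESeq2 3 were lower and with Epcam under 1 per 10000 5. Genes induced by dissociation fell in 13 of 17 (median -0.75), beside the same 6.82% of all genes. With DESeq2 7 were lower and with Epcam under 1 per 10000 8. Summed over the list, the median share in tumor 1 was 63.9 per 10000 in members and 68.4 in reference cells, with 173 and 107 UMIs per cell. The immediate early gene Jun was at 131 and 418 CPM against 360 and 693 CPM, and Atf3, a stress transcription factor, at 74.6 and 230 CPM against 213 and 432 CPM. The chaperone gene Hspa8 was the called member that rose (0.36 ± 0.13, edgeR, adjusted p = 0.0403), a call lost when any 1 of all live 1, all live 2 and sorted CAF 1 was left out. These genes respond to handling of the tissue, and what part that had in the difference was not tested.

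**Figure D4:**
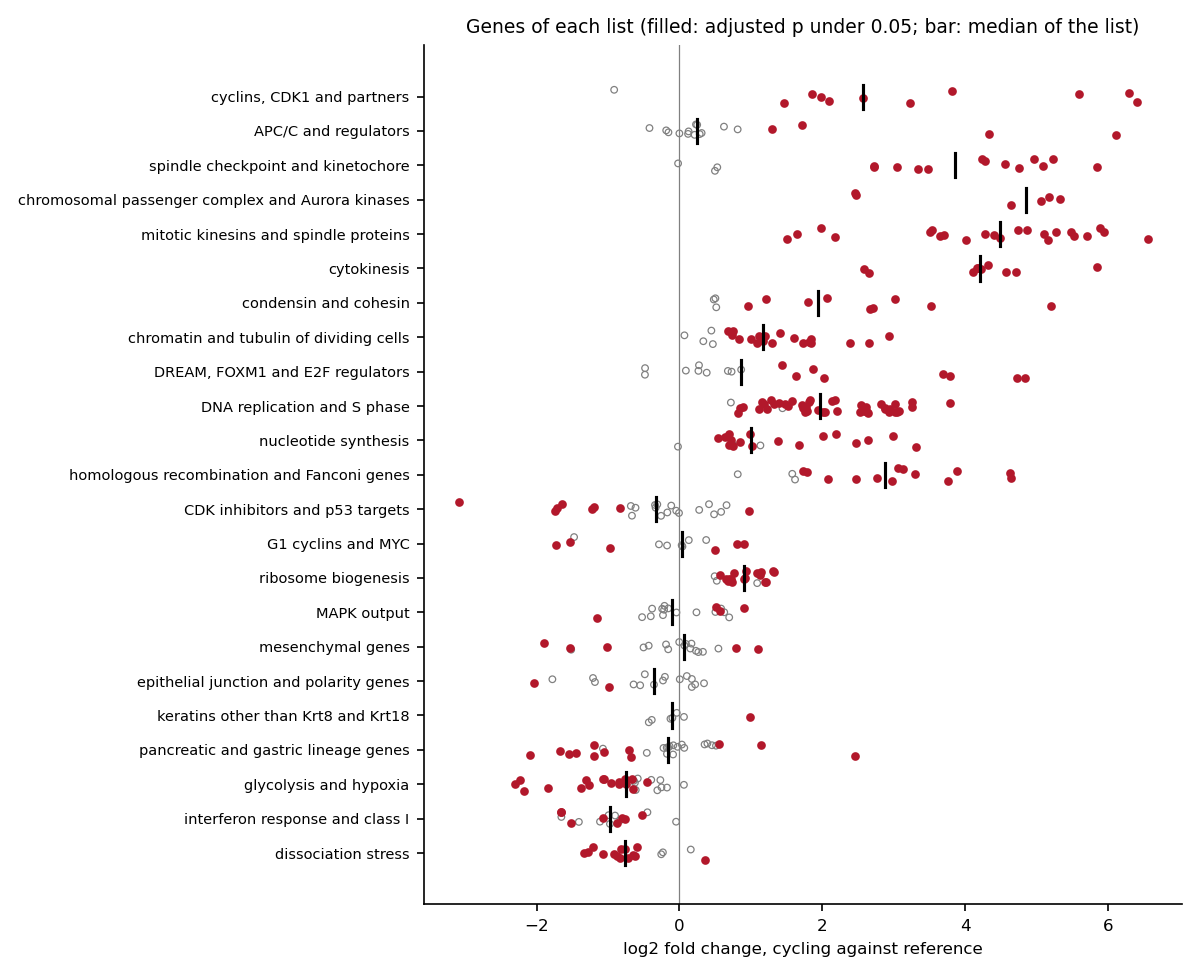
Log2 fold change of cycling against reference cells for each tested gene of 23 lists, without the 8 genes of the rule (filled: edgeR adjusted p under 0.05; black bar: median of the list). The cycle lists lie to the right with medians up to 4.86, while glycolysis and hypoxia, interferon and dissociation lists have medians of -0.75, -0.97 and -0.75.

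The lists of identity had members called in both directions or few called. The shares of all genes called, 7.53% higher and 6.82% lower, stand beside their counts too. Of 19 mesenchymal genes 3 fell and 2 rose (median 0.07). Fn1 (fibronectin) was at 32.0, 20.8, 254 and 126 CPM in members and at 173, 139, 142 and 275 CPM in the reference (-1.89 ± 0.20). Its members were lower in 3 of the 4 libraries and higher in all live 2, which has 4 of them. Zeb2, a repressor of epithelial genes, was called lower (-1.53 ± 0.46) though its levels went opposite ways in the tumors, at 1.99 against 9.66 CPM in tumor 1 and 20.5 against 16.2 CPM in tumor 2. S100a4 rose by 0.79 ± 0.18, and Fstl1 was called higher from tumor 2 alone (90.1 against 10.8 CPM there, 5.26 against 5.04 CPM in tumor 1). Of 17 epithelial junction and polarity genes 2 fell and 0 rose. Elf3, an epithelial transcription factor, fell by 0.99 on the log2 scale, and Cldn4 lost its call without the acinar-high cells (adjusted p = 0.111). Cdh1 (E-cadherin) was at 102 and 102 CPM against 117 and 98.8 CPM and was not called (adjusted p = 0.607). Krt6a was the keratin called higher, at 196 against 92.5 CPM in tumor 1 and at 0 in tumor 2.

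Of 28 pancreatic and gastric lineage genes 9 fell and 3 rose (median -0.16). With DESeq2 or without all live 1 it was 6 and 1, and with Epcam under 1 per 10000 5 and 2. Sprr1a, a cornified envelope protein gene, was at 307, 288, 122 and 265 CPM in members and at 1390, 1440, 20.2 and 357 CPM in the reference (-1.55 ± 0.17), so that all live 2 went the other way. Its log2 differences in tumors 1 and 2 were -2.315 and -0.52, a spread that the SE does not measure. Npy, the neuropeptide Y gene, was at 24.3, 46.5, 30.4 and 33.4 CPM against 202, 188, 67.5 and 37.3 CPM, lower in each library (-2.09 ± 0.25). Gkn3, a gastrokine gene, was at 5.19 against 5.98 CPM in tumor 1 and at 28.7 against 332 CPM in tumor 2, so its call rests on tumor 2. Tff1, a trefoil factor of gastric mucus, was at 6410, 5785, 10.1 and 5269 CPM against 5051, 4536, 378 and 1037 CPM. It was called higher (1.14 ± 0.13), with all live 2 opposite. The log2 differences of Tff1 in tumors 1 and 2 were 0.28 and 2.035, again a spread outside the SE. When cells were thinned to 5000 UMIs its log2 value was -0.11. Muc5ac rose through tumor 2 (81.9 against 4.49 CPM; under 1 CPM in both states of tumor 1). Anxa10 (0.56 ± 0.16) had a value of -0.24 in the thinned cells. Among markers of the Epcam-rich ducts, Spp1 (osteopontin) was at 2332, 2415, 9703 and 4483 CPM against 5269, 6438, 3853 and 13160 CPM (-1.29 ± 0.12), lower in 3 of 4 libraries, and Sox9, a ductal transcription factor, fell by 1.45 on the log2 scale.

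In the list of MAPK output 3 of 18 rose and 1 fell (median -0.10). Epha2 and Areg (amphiregulin) rose by 0.90 ± 0.24 and 0.57 ± 0.19. Dusp4, a phosphatase of ERK and part of its feedback, fell by 1.15 on the log2 scale. The other 14 did not pass.

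Outside the lists, the 12 called genes with the highest fold changes and 50 CPM or more in a state had log2 values of 1.73 to 5.44. Pbk, a mitotic kinase, was at 119 and 45.1 CPM in members of tumors 1 and 2 and at 2.41 and 1.80 CPM in the reference (5.44 ± 0.35). Cdkn3, a CDK-associated phosphatase, had 4.15 ± 0.34, and 2810417H13Rik 3.92 ± 0.28. The others were Lockd, Fam111a, Nasp, Dnajc9, Hat1, Vrk1, Dek, Tmpo and Lbr, with values from 2.60 for Lockd to 1.73 for Lbr. Nasp, Dnajc9 and Hat1 encode handlers of newly made histones, and Lbr and Tmpo proteins of the nuclear envelope. Of the 12 lowest, Reg2, Try5, Reg3b, Zg16, Reg3g and Clps are secreted proteins of the exocrine pancreas or gut, and Ctrb1 and Cpa1 of the acinar marker list went with them. Reg3b was at 3812 CPM in tumor 2 reference cells and under 1 CPM in both states of tumor 1. Without the 16 acinar-high cells Reg3b and Reg3g were not called (adjusted p = 0.111 and 0.913), Reg2, Zg16 and Clps were below the filter, and Try5 was still called. The other 6 of the 12, which were called with and without these cells, were Lcn2 (lipocalin 2), Ramp1 (a receptor activity-modifying protein), Cp (ceruloplasmin), Dmbt1, Selenbp1 and 8430408G22Rik. Ramp1 was at 1.71 and 45.1 CPM against 24.2 and 128 CPM (-2.90 ± 0.30), and Selenbp1 at 20.8 and 2.05 CPM against 101 and 24.3 CPM (-2.45 ± 0.30).

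Whether these differences were particular to the epithelial cells was tested against fibroblasts, as the difference of the 2 differences with the tumor as a block. The cycling fibroblasts numbered 10 in tumor 1 and 90 in tumor 2, and the reference fibroblasts 288 and 826. Of 11035 genes 0 were called (0% of those tested; 327 at an unadjusted p under 0.05; smallest adjusted p 0.130, edgeR), while DESeq2 called 5 (Csrp1, Rhoc, Serpinb1a, Stmn1 and Try5, each with a lower difference in the epithelial cells). By the edgeR test no gene is called particular to the epithelial cells. The cycle lists had high medians in both classes, at 4.11 and 4.76 for kinesin and spindle genes in epithelial cells and fibroblasts, and 1.74 and 1.15 for S-phase genes. The dissociation list had medians of -0.69 and -0.81, and ribosome biogenesis of 0.83 and 0.13.

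Glycolysis and hypoxia genes had a median of -0.67 in the epithelial cells and 0.09 in the fibroblasts, with a median difference of -1.10 beside 0.08 for all genes. Of its 27 genes 11 had an unadjusted p under 0.05 for the difference and 0 an adjusted one. Gapdh had log2 differences of -0.75 and -0.56 in the epithelial cells of tumors 1 and 2 and of 0.87 and 0.44 in the fibroblasts (difference -1.42 ± 0.47). Ankrd37 had -1.28 and -1.34 against 1.99 and 0.64, and Bnip3 -2.19 and -3.01 against 0.28 and -0.80. When each tumor and class had a block of its own, a fit chosen after the data were seen, Gapdh was among 18 called genes, 13 lower and 5 higher in the epithelial cells (adjusted p = 0.0265), while Bnip3 (0.0819) and Ankrd37 (0.136) were not. In that fit the cycle genes Cks2, Kif23 and Stmn1, the osteopontin gene Spp1, and Serpinb1a and Rhoc also had lower differences in the epithelial cells, and Clu, Lum, Efemp1, Stmn2 and Cxcl13 had higher ones. The exocrine genes Ctrb1, Try5, Reg2 and Reg3b were among its lower calls too (edgeR, adjusted p = 4.37e-06, 0.00106, 0.00206 and 0.00206). The 16 acinar-high reference cells of tumor 2 were part of that fit, and their part in these calls was not tested. Kif23, a centralspindlin motor, had 2.34 and 0.997 in the epithelial cells against 4.26 and 6.61 in fibroblasts, and Stmn1, which destabilises microtubules, had 1.38 and 0.77 against 3.28 and 2.91. Markers of other cells were not matched between the classes, and their part in these differences was not tested.

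**Figure D5:**
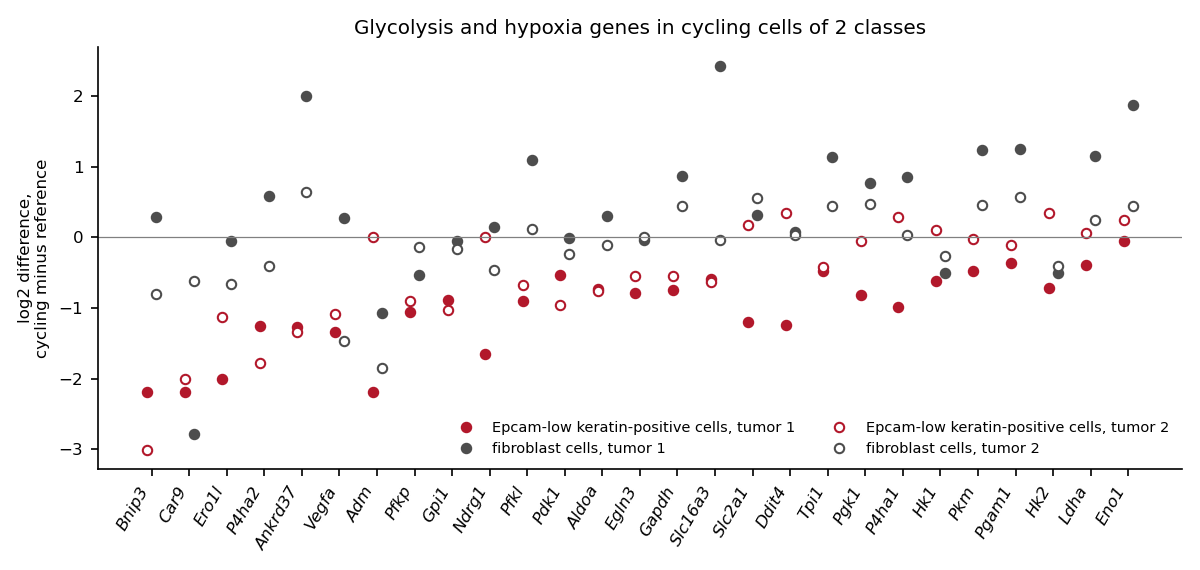
Log2 difference between cycling and reference cells for 27 genes of glycolysis and hypoxia, in Epcam-low keratin-positive cells (red) and fibroblasts (grey) of tumor 1 (filled) and tumor 2 (open). Most epithelial points of tumor 1 lie below 0 and fibroblast points scatter on both sides; 0 genes passed the test of the difference.

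The CAF gate left the members of tumor 1 nearly as they were in the all live library. All live 2 held only 4 members, under the 10 needed for a sum, a minimum set here, so the fractions were compared in tumor 1 alone, with no replicate and no test. Of 2898 genes with at least 50 CPM, 0 were over 2-fold higher and 6 over 2-fold lower in the sorted members (0.207%). The 6 were Lyz2, Chil3, S100a8, Cxcl2, Ifitm3 and Cyr61. Lyz2, the lysozyme gene of myeloid cells, was at 96.6 CPM in all live members and 0.150 CPM in sorted ones, and at 109 and 0.543 CPM in the reference cells of the same libraries. The neutrophil gene S100a8 was at 77.7 against 2.54 CPM in members and at 75.8 against 6.08 CPM in reference cells. Both genes had the same order of the fractions in dividing and in other keratin-positive cells. The matrix gene Cyr61 differed in the members (69.5 against 25.3 CPM) and had the other order in reference cells (35.04 against 45.3 CPM). The medians of the glycolysis and hypoxia, S-phase and mesenchymal lists between the fractions were -0.02, 0.03 and -0.01 on the log2 scale (with a pseudocount of 1 CPM).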

How the data were processed

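The deposited values are UMI counts for each gene and barcode without normalization; the authors made them on mm10, and the submitters' processing notes name Cell Ranger 2.0.0 and CASAVA 1.4. The choice of barcodes is not stated there. The deposited gene and barcode tables hold names (other text). There are 8282 barcodes with 85230726 UMIs (14972652 to 30950993 in a library). The design text mentions technical replicates, which the libraries do not keep apart. Libraries of one number come from 1 tumor by the series title and design text, and this pairs the samples.

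The quality filter asked for 500 genes and no more than 10% mitochondrial UMIs. The members, gene lists and tests were chosen with earlier results of these data known. Of 529 list genes 524 matched a symbol. Doublets were scored with scrublet (scanpy 1.11.5), and the 163 highest scores, 8 of them members, were left out as an alternative. Of barcodes that passed, 30 occur in more than 1 library (9 members).

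Counts were summed per tumor and state and tested two-sided with edgeR 4.0.16 in R 4.3.3 (quasi-likelihood, TMM, filterByExpr, Benjamini-Hochberg at 0.05), with DESeq2 1.42.0 as an alternative; the code was tested on simulated data. SE is derived from the F statistic and is not the spread between the tumors, and n is 2 tumors unless stated. Named genes were all rule genes; of each list up to 4 called genes with the largest absolute change and any called against the list's direction; and outside the lists the 12 highest and 12 lowest called genes with one sign in both tumors and 50 CPM. Further genes (Cdkn2a, Trp53, Myc, Cdh1, Vim, Slc2a1, Ldha, Pkm, Eno1, Gapdh, Aldoa, Ankrd37, Pdpn) were added after their values were seen. Promoter windows are from RefSeq (GRCm38.p6). Some genes and alleles are not reported here.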

Additional observations from a re-analysis of the deposited data

How the results depend on the processing

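The comparison of cycling with reference cells called 863 genes higher and 781 lower. Without the replicate block the counts were 0 and 0, so the calls need the pairing of states within a tumor. DESeq2 gave 261 and 164, an Epcam limit of 1 per 10000 gave 498 and 375, and a mitochondrial limit of 5% gave 508 lower. Where tumor 2 was left with under 10 members, as in the thinned cells, the libraries were the sums: this gave 2945 and 3084 with keratins at 40 per 10000, 2882 and 3065 with 6 or more of 8 genes against 0, 2319 and 2653 with sums per library throughout, and 3142 and 3352 with tumor 1 alone, a setting added after the data were seen. Wherever libraries were the sums, the fractions of tumor 1 counted as replicates though they come from 1 animal. The larger counts of these fits do not measure variation between animals and are not a stronger result. Leaving out 1 library gave 461 to 3142 higher and 314 to 3352 lower; the lowest counts are without all live 1 and the highest without sorted CAF 2, where only the libraries of tumor 1 remain. RLE scaling, no filter and a reference limited to cells of at least 20000 UMIs gave counts within 1.5 times in both directions. So did leaving out the highest doublet scores or the acinar-high cells. Thinned cells gave 667 and 728 from the tumor 1 libraries, where unthinned cells gave 3142 and 3352; of 1461 main calls tested there 808 were also called and 36 had the opposite sign. Fstl1 ranged from -0.0498 to 1.313 over the libraries left out, with -0.0498 without sorted CAF 2 and in the same fit with tumor 1 alone, Gkn3 0.12 with 6 or more of 8 genes against 0, and Tff1 -0.11 and Anxa10 -0.24 in thinned cells; for these 4 genes the sign turned and the cause was not tested. Of 2096 values for 122 named genes under 18 settings 1844 kept sign and call, 247 lost the call (122 of them without the block) and 5 changed sign. These genes were mostly named for large changes in the main fit, so the count does not describe all calls. Of all main calls tested in a setting, DESeq2 also called 420 of 1542. It was 773 of 1573 without all live 1, 873 of 1641 with Epcam under 1 per 10000 and 1635 of 1644 with RLE scaling.

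The difference between epithelial cells and fibroblasts called 0 genes, 0 without the replicate block, 5 with DESeq2, 40 with no filter on low counts and 18 with a replicate block for each tumor and class. It was not run without all live 1, sorted CAF 1 or sorted CAF 2, per library, thinned or with 6 of 8 genes, which left under 10 cells in a sum; leaving out all live 2 gave 0. Sorted against all live members was not tested, paired or unpaired, since a sum was set to need 10 cells and all live 2 held 4. The 15 members of tumor 2 limit what a second tumor can show.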
